A study of Mus musculus with 4 samples.

Results

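Ctla4, Cd28 and 8 further coreceptor genes were followed in naive CD4+ T cells of mice without TACI and of wild-type mice. The 10 genes were taken by name (Ctla4, Cd28, Icos, Pdcd1, Btla, Tigit, Lag3, Havcr2, Cd200 and Cd96) from the 22180 genes that the platform annotation pairs with a probe set of 1 gene symbol, and each had 1 probe set. The cells were sorted as CD4+, CD62L high, CD44 low and CD25- out of pooled spleens and lymph nodes, and all mice were on the C57BL/6 strain. The TACI-/- group lacks Tnfrsf13b, which encodes the receptor TACI for the cytokines BAFF and APRIL, and the other group was wild type (WT). Each genotype had 2 arrays (Affymetrix GeneChip Mouse Gene 2.0 ST, 1 colour), called biological replicates in the labels. How many mice made up a pool, and their age, are not given in the sources used here, so the spread between replicates may be smaller than that between single mice. The number of arrays, 2 per genotype, limits the precision, and an exact permutation test of 1 gene (two-sided) cannot go below p = 0.333 here.

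A T cell needs a second signal beside its antigen receptor, and CD28, bound by CD80 or CD86 on antigen-presenting cells, is the classic source of it. CTLA-4 binds the same ligands more tightly, takes them off the presenting cell and so limits CD28. ICOS is a costimulatory receptor of the same family. PD-1 (Pdcd1), BTLA, TIGIT, LAG-3 (Lag3), TIM-3 (Havcr2) and CD96 are counted among the inhibitory receptors, although CD96 has been described with stimulating roles too. CD200 is a surface ligand that acts through an inhibitory receptor on other cells. Naive T cells carry CD28 from the start, whereas CTLA-4, ICOS and PD-1 are best known from activated, memory, follicular helper or regulatory T cells.

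The genes lie in small groups in the genome. In the RefSeq gene table for GRCm38.p6, Cd28, Ctla4 and Icos follow one another on chromosome 1 with 0 other tested genes between them, and Pdcd1 lies elsewhere on that chromosome. Chromosome 16 holds Tigit, Btla, Cd200 and Cd96, with 17 tested genes between Tigit and Btla, 0 between Btla and Cd200 and 2 between Cd200 and Cd96. Lag3 lies on chromosome 6, next to Cd4. Havcr2 lies on chromosome 11, as does Tnfrsf13b, with 162 tested genes between them. The stretch upstream of the start of 7 of the 10 genes was in the RefSeq promoter table (GRCm38.p6). The 250 bases before the start are shown for Ctla4 and Tigit, the members with the largest fitted differences between the genotypes, and for Btla, the single member with a negative one, 5′ to 3′ on the strand of the gene.
Ctla4 (chr1:60908775-60909024, plus strand): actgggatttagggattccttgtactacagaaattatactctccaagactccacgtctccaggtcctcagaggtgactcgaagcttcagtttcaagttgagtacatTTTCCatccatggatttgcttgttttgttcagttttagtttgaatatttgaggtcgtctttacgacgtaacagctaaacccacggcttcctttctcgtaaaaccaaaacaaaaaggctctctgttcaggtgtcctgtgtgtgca
Tigit (chr16:43664185-43664434, minus strand): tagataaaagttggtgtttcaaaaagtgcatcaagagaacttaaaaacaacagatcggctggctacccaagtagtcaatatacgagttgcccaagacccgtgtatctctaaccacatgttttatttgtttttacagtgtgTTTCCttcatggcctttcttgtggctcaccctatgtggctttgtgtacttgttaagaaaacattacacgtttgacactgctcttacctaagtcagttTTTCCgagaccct
Btla (chr16:45224087-45224336, plus strand): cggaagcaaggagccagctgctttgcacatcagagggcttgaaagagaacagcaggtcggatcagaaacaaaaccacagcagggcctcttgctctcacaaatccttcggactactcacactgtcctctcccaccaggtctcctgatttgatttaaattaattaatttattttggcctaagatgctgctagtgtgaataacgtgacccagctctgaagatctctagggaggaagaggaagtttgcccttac
Capitals mark each match of GGAAA, the core motif of NFAT factors, on either strand (TTTCC on the strand shown). NFAT proteins carry the calcium signal of the antigen receptor to the genes of activated T cells. The motif stood once in the Ctla4 stretch, at 2 places in that of Tigit and nowhere in that of Btla, and 4 of the 7 stretches held it (Ctla4, Tigit, Pdcd1 and Cd96), as did 55.6% of the 32851 promoters of the same length. Cd96 had the most matches of the 7, at 4, and Pdcd1 had 2, where the median over all promoters was 1. TGANTCA, a motif of AP-1 factors, was in the Havcr2 stretch alone of the 7 and in 6.75% of all promoters. AAAGGTCA, the motif bound by NR4A receptors as monomers, was in 0 of the 7 and in 1.34% of all promoters. Both strands were searched for every motif, matches of different motifs were counted separately even where they overlap, and a match is only a stretch of letters.

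Values are the deposited log2 units, in which a difference of 1 is a doubling; brightness differs between probe sets for reasons other than RNA amount, so no gene's level is set against that of another. A gene counted as measured where it had a probe set of 1 gene symbol. It was tested where at least 2 arrays reached the 40th percentile of their array (3.74 to 3.77), which 9 of the 10 members and 13782 genes in all did. Differences are TACI-/- minus WT with moderated standard errors (SE) from a limma fit of those 13782 genes, and p-values are adjusted over all of them (Benjamini-Hochberg, threshold 0.05). The genes were picked by name with the values of this same comparison known, Ctla4 among its calls, and the probe set of each was chosen by its mean over the 4 arrays, so the adjusted p places a gene among all genes and is no independent support. In that fit 0.109% of all tested genes passed in the direction of higher in TACI-/- cells, and 0.029% in the other direction. Of the members, 1 passed as higher (Ctla4) and 0 as lower. Tnfrsf13b itself was below the percentile on all 4 arrays, at 2.91 ± 0.26 in TACI-/- cells and 2.99 ± 0.05 in WT cells (SD, n = 2), so it does not check the genotype labels. Cd4 was at 10.57 and 10.45 in TACI-/- cells, against 10.64 and 10.46 in WT cells, and Cd8a was below the percentile on all 4 arrays. Cd8b1, the other CD8 chain, was above it on all 4, at 6.11 and 5.73 in TACI-/- cells, against 6.55 and 6.59 in WT cells.

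Ctla4, the gene of the main brake on CD28, had the largest difference of the 10. It was at 6.27 and 6.25 in TACI-/- cells, against 4.60 and 4.79 in WT cells. The lower TACI-/- array lay 1.46 above the higher WT array, while the replicates of a genotype differed by far less. The difference was 1.57 ± 0.14 (SE), or 2.96-fold, with a 95% interval from 1.24 to 1.89 and a limma adjusted p of 0.0246. By p the gene was number 7 and by size of difference number 15 of the 13782. The size changed little when 1 array was left out (1.47 to 1.66), but the call was lost each time, with limma adjusted p of 0.285 without TACI-/- replicate 1, 0.237 without TACI-/- replicate 2, 0.259 without WT replicate 1 and 0.182 without WT replicate 2. It was also lost without the low-value filter (limma adjusted p = 0.052) and without moderation of the variance (0.618). In sorted populations measured in bulk, more cells of a type that carries the gene and more RNA per cell cannot be told apart.

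**Figure D1:**
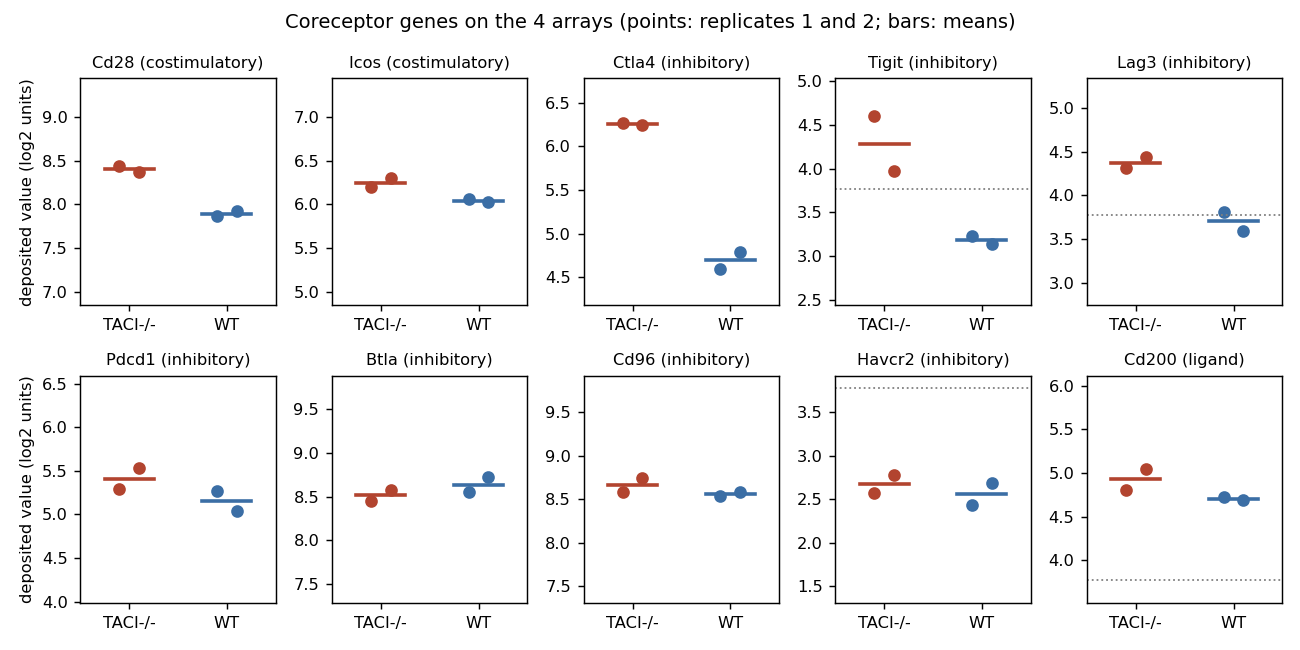
Deposited value (log2 units) of each coreceptor gene on the 4 arrays, TACI-/- left and WT right; points are replicates 1 and 2, bars are means, and the dotted line marks the highest low-value filter, 3.77. Every panel spans the same number of log2 units around its own centre, so distances can be read across panels but heights cannot. The widest gap between genotypes is that of Ctla4. Both WT arrays of Tigit, WT replicate 2 of Lag3 and all 4 arrays of Havcr2 lie under the line.

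Tigit and Lag3, which are inhibitory receptors of activated and exhausted T cells and of natural killer cells, also had higher values in TACI-/- cells. Tigit was at 4.60 and 3.97 in TACI-/- cells, against 3.23 and 3.14 in WT cells. Both WT arrays were below the filter, and the gene entered the fit through its TACI-/- arrays alone, so it had to differ to be there. With WT set at the filter value, the mean of the TACI-/- arrays was 1.45-fold higher, 0.54 on the log2 scale. The place of Tigit among Lag3 and Cd28 is therefore not set. This bound carries no sampling error and leans on TACI-/- replicate 1, since replicate 2, at 3.97, stood close to the WT filter value of 3.74. The fitted difference was 1.10 ± 0.22 (SE), with a limma adjusted p of 0.256. It rested unevenly on the arrays, since it was 0.78 without TACI-/- replicate 1, the higher of the TACI-/- arrays, and 1.41 without TACI-/- replicate 2. Lag3 was at 4.31 and 4.44 in TACI-/- cells, against 3.81 and 3.59 in WT cells. The arrays did not overlap, and 1 of the WT arrays was below the filter. Its difference was 0.68 ± 0.15 (SE), 1.60-fold, with a 95% interval from 0.33 to 1.03 and a limma adjusted p of 0.271. By a looser rule, a fold change of 1.5 or more together with an unadjusted p below 0.05, Ctla4, Tigit (on its fitted value) and Lag3 passed as higher, 3 members, and 0 passed as lower; 1.42% of all tested genes passed as higher and 0.878% as lower. At its bound of 1.45-fold, Tigit would fall short of the 1.5-fold of this rule. With the filter required on all 4 arrays, Tigit and Lag3 were not tested and 1 member passed.

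The costimulatory receptors had positive differences, both smaller than that of Ctla4. Cd28 was at 8.44 and 8.37 in TACI-/- cells, against 7.87 and 7.92 in WT cells. The replicates lay close together and the genotypes 0.45 apart. The difference was 0.51 ± 0.13 (SE), 1.42-fold, with a 95% interval from 0.20 to 0.82; the limma adjusted p was 0.327, and the fold stayed under the looser rule. Icos was at 6.20 and 6.30 in TACI-/- cells, against 6.06 and 6.03 in WT cells. These arrays did not overlap either, by 0.15, and the difference of 0.21 ± 0.13 (SE) had an interval from -0.10 to 0.52 and a limma adjusted p of 0.715. Ctla4, between these neighbours on the chromosome, differed by 1.06 more than Cd28 and by 1.35 more than Icos on the log2 scale. Per array, and with each gene set to its own mean, Ctla4 minus Cd28 was 0.51 and 0.55 in TACI-/- cells, against -0.60 and -0.45 in WT cells, so the unequal change was larger than the spread between replicates.

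Pdcd1, Btla, Cd96 and Havcr2, the other inhibitory receptors, showed no difference that the arrays could resolve. Pdcd1, which encodes PD-1, was at 5.29 and 5.53 in TACI-/- cells, against 5.27 and 5.04 in WT cells. Its groups stood only 0.03 apart, and the 95% interval of the difference (0.26) ran from -0.12 to 0.63. Btla, whose protein binds HVEM and is carried by resting lymphocytes, was at 8.45 and 8.58 in TACI-/- cells, against 8.55 and 8.72 in WT cells. It overlapped between the genotypes and was the 1 member with a negative difference, -0.12 (interval -0.45 to 0.21). Cd96, a receptor for PVR, was at 8.58 and 8.74 in TACI-/- cells, against 8.54 and 8.58 in WT cells. The lower TACI-/- and the higher WT array were equal to 2 decimals, and the interval of its difference of 0.10 ran from -0.22 to 0.42. Havcr2, which encodes TIM-3, was at 2.57 and 2.78 in TACI-/- cells, against 2.43 and 2.68 in WT cells, below the filter throughout, so its values cannot show a difference. The interval of Pdcd1 holds both 0 and changes past 1.5-fold, so equality between the genotypes is not shown.

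Cd200 was the ligand among the 10. It was at 4.81 and 5.04 in TACI-/- cells, against 4.72 and 4.69 in WT cells. The arrays stood 0.09 apart, and the difference of 0.22 ± 0.14 (SE) did not pass (limma adjusted p = 0.73). In all, both TACI-/- arrays lay above both WT arrays in 8 of the 10 members (Cd96 by a margin that vanishes at 2 decimals) and below them in 0, and 20.5% of all tested genes lay above and 18.1% below. Since the members were picked with this comparison known, nothing is read from that count. In 7 of the 10 members TACI-/- replicate 2 was the higher of the TACI-/- arrays, and Tigit, Ctla4 and Cd28 were the exceptions.

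**Figure D2:**
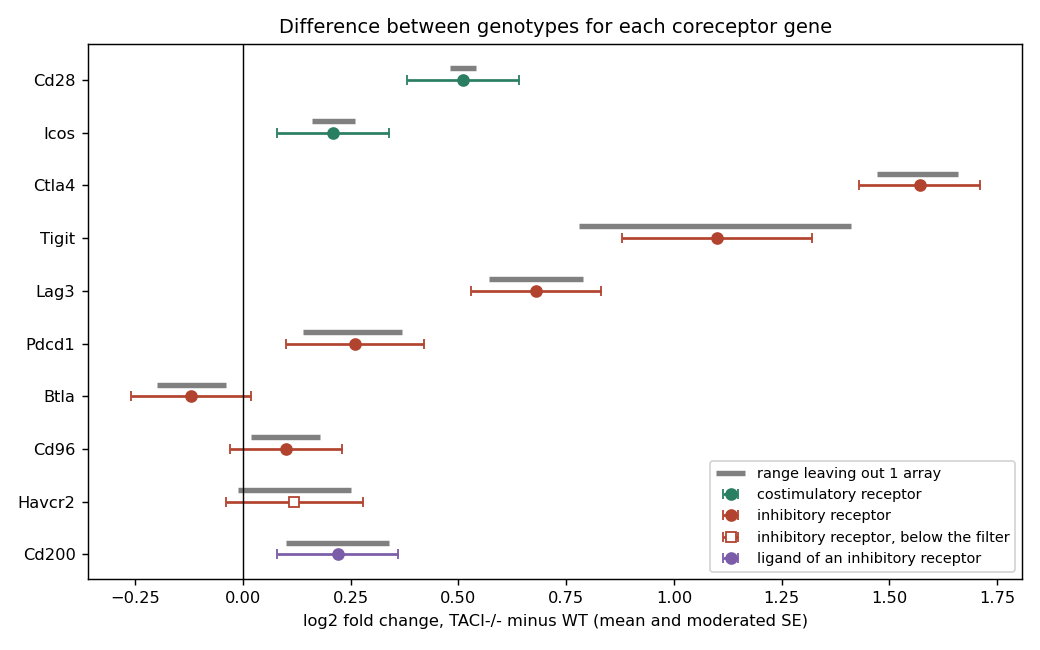
Log2 fold change (TACI-/- minus WT) of each coreceptor gene with its moderated SE; grey bars give the range when 1 array is left out, and the open square marks Havcr2, below the filter. Ctla4 (1.57), Tigit (1.10 as fitted, against WT arrays below the filter), Lag3 (0.68) and Cd28 (0.51) stand to the right, and the remaining 6 lie between -0.12 and 0.26.

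Set against each other as classes, inhibitory and costimulatory receptors were not separated by direction. The 7 inhibitory receptors had a median difference of 0.26 and a mean of 0.53, with a range from -0.12 to 1.57. The costimulatory Cd28 and Icos had a mean of 0.36. Costimulatory minus inhibitory came to -0.17 between the means. These values hold the fitted 1.10 of Tigit and the dim Havcr2; with Tigit at its bound and Havcr2 left out, a setting added after seeing the data, the inhibitory mean over 6 receptors was 0.50 and costimulatory minus inhibitory was -0.14. Leaving out Ctla4 and Tigit, picked after their values were seen for being the largest, must lower the inhibitory mean; it was then 0.21, and costimulatory minus inhibitory was 0.15. The median over all 13782 tested genes was 0.01. Per array, as the mean deviation from each gene's own average, the costimulatory class was at 0.17 and 0.19 in TACI-/- cells, against -0.18 in both WT arrays. The inhibitory class was at 0.25 and 0.28 in TACI-/- cells, against -0.27 and -0.26 in WT cells. The inhibitory class without Ctla4 and Tigit was at 0.02 and 0.19 in TACI-/- cells, against -0.10 in both WT arrays.

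Of the genes next to the members that are named here, 0 passed the threshold. Beside the Cd28, Ctla4 and Icos group, Raph1 had a difference of 0.21 ± 0.13 (SE), Abi2 0.08 ± 0.17, 9530026F06Rik -0.06 ± 0.15 and Pard3b 0.03 ± 0.27. Next to Lag3, Cd4 had -0.04 ± 0.14 and Ptms 0.32 ± 0.17. Tigit lay between Gm9968 at 0.06 ± 0.14 and Drd3 at -0.15 ± 0.13. The third tested gene from Cd96 is Trat1, whose protein TRIM assists the transport of CTLA-4 to the surface. Trat1 was at 7.89 and 7.96 in TACI-/- cells, against 8.64 and 8.34 in WT cells, a difference of -0.56 ± 0.15 (SE; limma adjusted p = 0.36).

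**Figure D3:**
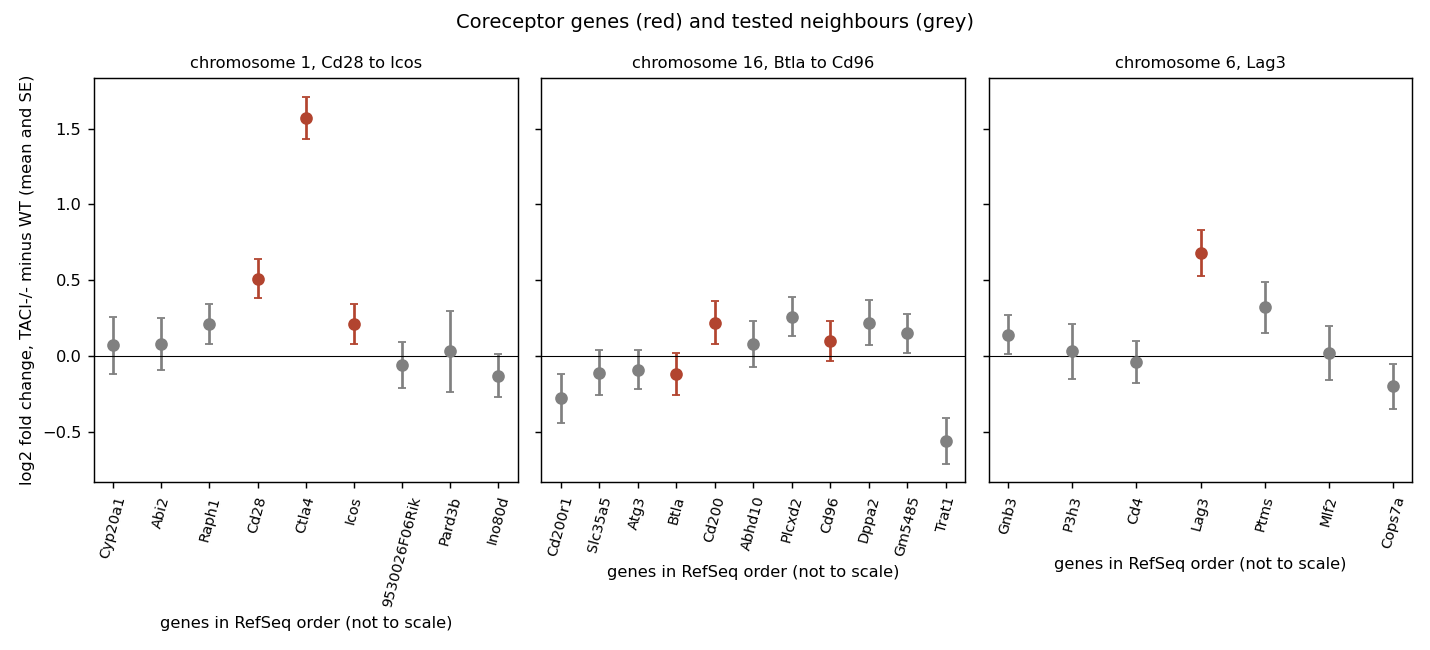
Log2 fold change (TACI-/- minus WT) with SE for coreceptor genes (red) and the tested genes nearest to them (grey), in RefSeq order and not to scale. Ctla4 (1.57) and Cd28 (0.51) stand above their neighbours Raph1 (0.21) and Abi2 (0.08), and Lag3 (0.68) above Cd4 (-0.04).

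No ligand gene passed. Of the 16 listed ligands and counter-receptors, 12 were tested, 0 passed in either direction, 4 were positive and 8 negative, and their median was -0.06. Cd80 was below the filter on all 4 arrays. Cd86, the other ligand of CD28 and CTLA-4, was at 4.56 and 4.79 in TACI-/- cells, against 4.43 and 4.50 in WT cells. Icosl, the ligand of ICOS, was at 5.52 and 5.53 in TACI-/- cells, against 5.40 and 5.14 in WT cells (limma adjusted p = 0.691). Both sets of arrays were higher in TACI-/- cells without passing. Cd274, which encodes the PD-1 ligand PD-L1, had a difference of -0.05 ± 0.13 (SE), and Tnfrsf14, the HVEM gene, -0.06 ± 0.14. Pvr, whose protein is bound by TIGIT and CD96, was at 7.65 and 7.38 in TACI-/- cells, against 7.22 on both WT arrays, 0.30 ± 0.15 apart, and Nectin2, another ligand of TIGIT, had 0.00 ± 0.16. Lgals9 and Hmgb1, reported ligands of TIM-3, had -0.07 ± 0.14 and -0.24 ± 0.15, and Ceacam1, another, -0.07 ± 0.16. Nectin1 had 0.21 ± 0.16. Cd200r1, the receptor of CD200, had -0.28 ± 0.16, and Lgals3, a reported ligand of LAG-3, -0.37 ± 0.18. Fgl1, Pdcd1lg2 and Nectin3 were not tested, Fgl1 and Nectin3 being below the filter throughout.

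Other receptors that tune T cell activation were mixed. Of 19 measured 16 were tested, 0 passed, 7 were positive and 9 negative, and the median was -0.04. The largest differences were those of Tnfrsf9, Tnfrsf18 and Tnfrsf4, receptors of the tumour necrosis factor family. Tnfrsf18 is also on the list of regulatory T cell markers. Cd40lg, a ligand of the same family, had -0.04 ± 0.16 (SE). Tnfrsf9 (4-1BB) was at 6.18 and 5.86 in TACI-/- cells, against 5.25 and 5.24 in WT cells, 0.77 ± 0.15 apart (limma adjusted p = 0.256). Tnfrsf18 (GITR) differed by 0.50 ± 0.18 and Tnfrsf4 (OX40) by 0.43 ± 0.15, with limma adjusted p of 0.54 and 0.515. Receptors of resting T cells lay near 0, among them Cd5 at 0.00 ± 0.13, Cd6 at -0.04 ± 0.14, Cd27 at -0.19 ± 0.13 and Vsir, which encodes the inhibitory receptor VISTA, at 0.06 ± 0.15. Cd226, the costimulatory rival of TIGIT and CD96 for PVR, had -0.15 ± 0.13.

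Downstream of the receptors no gene passed. All 20 measured signalling genes were tested, 0 passed, 10 were positive and 10 negative. The smallest p belonged to Pik3r1, the regulatory subunit of the kinase that CD28 recruits, at -0.16 ± 0.15, and the phosphatase genes Ptpn6 (SHP-1) and Ptpn11 (SHP-2), used by PD-1 and BTLA, had -0.14 ± 0.15 and 0.13 ± 0.14. Of 10 tested genes for the transport and turnover of CTLA-4, 0 passed, and the median was -0.03. Lrba, whose protein keeps CTLA-4 from degradation, had 0.18 ± 0.13.

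Transcription factors with reported action on coreceptor genes were the one list with calls. Of 17 tested 3 passed as higher, Nr4a3, Nr4a2 and Irf4, and 0 as lower, where 0.109% and 0.029% of all tested genes did. Positive differences were found in 15 of the 17, where 51.8% of all tested genes had one, and the median was 0.43, where that of all tested genes was 0.01. These lists were drawn up with earlier results known, and the factors were among the calls already seen. Irf4 was at 5.70 and 5.82 in TACI-/- cells, against 4.13 and 4.16 in WT cells (limma adjusted p = 0.0246), and Nr4a3 at 8.16 and 8.23, against 5.89 on both WT arrays (0.00514). Maf was at 5.46 and 5.43 in TACI-/- cells, against 4.57 and 4.29 in WT cells, and Eomes at 4.99 and 4.62, against 4.01 on both WT arrays, with limma adjusted p of 0.1 and 0.256. The NFAT genes were near 0 or small, Nfatc1 at 0.23 ± 0.13 (SE) and Nfatc2 at -0.08 ± 0.15, and so were Tox at 0.14 ± 0.13 and Prdm1 at -0.01 ± 0.19. The 3 calls fell to 1 without the low-value filter and to 0 without moderation and in each fit that left out 1 of the 4 arrays.

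**Figure D4:**
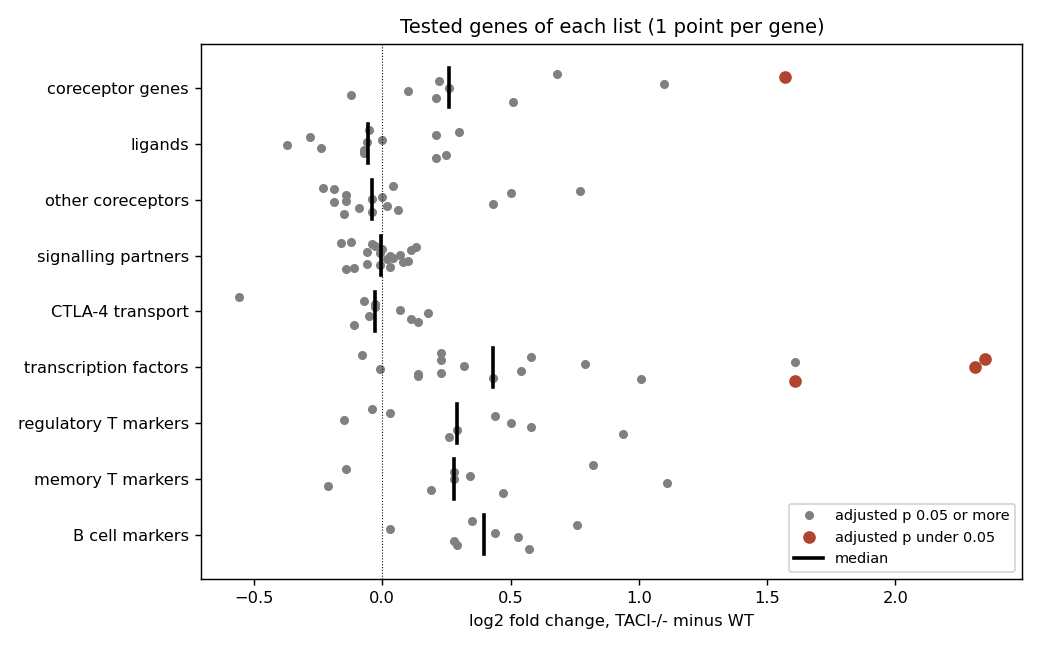
Log2 fold change (TACI-/- minus WT) of the tested genes of each list drawn, 1 point per gene, with the median as a bar. Genes past an adjusted p of 0.05 are in red. The follicular helper, myeloid, CD8 or natural killer, and CD4 and naive T cell lists are not drawn. Ligands, other coreceptors, signalling partners and transport genes centre on 0, with medians from -0.06 to 0.00. The red points are Ctla4 and the transcription factors Nr4a3, Nr4a2 and Irf4. Foxp3 and Tnfrsf18 stand in more than 1 of the lists drawn.

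Genes with a pattern over the 4 arrays like that of Ctla4 were sought by the root mean square distance of values centred on each gene's mean. The 5 nearest of the tested genes were Irf4 (distance 0.080), Wls (0.104), Dusp1 (0.122), Irs2 (0.134) and Chka (0.147 log2 units). Irf4 encodes a transcription factor induced by antigen receptor signals, Wls a carrier of Wnt proteins, Dusp1 a phosphatase of MAP kinases, Irs2 an adaptor of the insulin receptor and Chka a choline kinase. Nearest to Cd28 were Adam19 (0.014), Prr7 (0.017) and Pnrc1 (0.018). Nearest to Tigit, with its higher TACI-/- replicate 1, were the clock gene Per1 (0.077), the interleukin receptor gene Il2rb (0.093) and Nfkbid (0.104). These distances describe 4 arrays only, and those from Tigit use WT values below the filter.

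Several coreceptors are markers of regulatory or memory T cells, and other markers of those cells were measured beside them. Foxp3, the defining factor of regulatory T cells, was above the filter on all 4 arrays although the sort removed CD25+ cells. It was at 6.19 and 5.98 in TACI-/- cells, against 5.63 and 5.38 in WT cells. Of 13 regulatory T cell markers 9 were tested and 0 passed. Nrp1, Itgae, Ebi3 and Il10 were below the filter on all 4 arrays. Ikzf2 (Helios) and Lrrc32 were below it on both WT arrays and entered the fit through their TACI-/- arrays alone. Of the 7 markers that reached the filter in both genotypes, 5 were positive, where 51.8% of all tested genes were. The summed linear signal of all 13 markers, Ikzf2, Lrrc32 and the dim genes included, was 535 and 516 in TACI-/- cells, against 448 and 418 in WT cells. Bright probe sets weigh most in such sums, which here and below take all measured genes of a list. Of 11 measured markers of activated and memory cells 9 were tested, 0 passed and 7 were positive. The sums over the 11 were 1186 and 1119 in TACI-/- cells, against 796 and 751 in WT cells. Cd69, the brightest of that list, weighed most in these sums. It was at 9.57 and 9.48 in TACI-/- cells, against 8.86 and 8.56 in WT cells. Cd44, the gate of the sort, differed by 0.19 ± 0.14 (SE), while Cd69 differed by 0.82 ± 0.15. Follicular helper markers, which often accompany Icos and Pdcd1, had sums of 355 and 319 in TACI-/- cells, against 298 and 332 in WT cells. Among the 5 tested, 0 passed the threshold, 3 were positive and 2 negative, and Il21, Ascl2 and Il4 were below the filter. The largest difference was that of Cxcr5, 0.81 ± 0.19 (SE; limma adjusted p = 0.299). Cxcr5 was at 6.25 and 6.05 in TACI-/- cells, against 5.11 and 5.57 in WT cells. B cell markers had sums of 356 and 286 in TACI-/- cells, against 236 and 255 in WT cells, with 0 of 8 tested past the threshold, and Ms4a1, Blk and Ebf1 below the filter on all 4 arrays. Ly86 reached the filter in TACI-/- cells alone, and the other 7 tested B cell markers were positive. The part of these cells in the differences of Ctla4, Tigit, Lag3 and Cd28 was not tested. Markers of myeloid and of CD8 T or natural killer cells had 0 of 6 and 0 of 5 tested past the threshold. Their sums overlapped for the myeloid list, at 482 and 433 in TACI-/- cells, against 446 and 428 in WT cells. Cd209a, the brightest myeloid gene, with means of 7.75 and 7.77, weighed most in these sums. Of the 6 tested myeloid genes 2 were positive and 4 negative, with Cd68 at 0.71 ± 0.17 (SE) and Lyz2 at -0.49 ± 0.15. For the CD8 T or natural killer list the sums were lower, at 347 and 332 in TACI-/- cells, against 364 and 408 in WT cells. In that list Klrd1 (CD94) differed by -0.87 ± 0.15 (SE, limma adjusted p = 0.189) and Cd8b1 by -0.65 ± 0.16 (0.327). Of the 5 tested, 2 were positive and 3 negative, with a median of -0.03. Nkg7 had 0.17 ± 0.14, Prf1 0.08 ± 0.14 and Klrc1 -0.03 ± 0.22. The CD4 and naive T cell list had 0 of 9 past the threshold and a median of -0.04, with Il7r, the survival receptor of naive cells, at -0.48 ± 0.15. Its sums were 10676 and 10503 in TACI-/- cells, against 11958 and 11202 in WT cells. Both TACI-/- arrays lay below both WT arrays in 4 of the 9 genes and above them in 2, where 18.1% and 20.5% of all tested genes did. The list was drawn up with earlier results known, so nothing is read from that count.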

How the data were processed

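RNA of sorted naive CD4+ T cells was hybridised to 4 arrays, 2 TACI-/- and 2 WT, grouped by the genotype in their titles. The deposited values are on a log2 scale, 1 per probe set and array; the submitters' processing notes name RMA and Partek but give neither versions nor roles, the base was taken from RMA and the range of values, and filters are not given in the sources used here. Of 41345 probe sets, 23521 had 1 gene symbol in the platform annotation, and a gene was represented by its brightest probe set over the 4 arrays. Genes reaching the 40th percentile of their array on at least 2 arrays were fitted with limma 3.58.1 in R 4.3.3 (genotype as the only term, eBayes, two-sided, Benjamini-Hochberg over 13782 genes, threshold 0.05); Havcr2 and other dim genes have values from the fit of all 22180 genes. The prior had 4.59 degrees of freedom. No label ties equally numbered replicates of the genotypes together, so no block was used.

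The members and lists were chosen with earlier results of these data known. Genes were named by a rule: all members, Tnfrsf13b, up to 4 genes per pathway list by p, every ligand, defining markers, neighbours and the nearest patterns; other list genes were chosen after their values were seen. Some genes of the lists are not reported here. Alternatives were other low-value filters, centring, a further quantile normalization, other uses of several probe sets, other variance models, a replicate block and leaving out each array. Array precision rests on 2 residual degrees of freedom.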

Additional observations from a re-analysis of the deposited data

How the results depend on the processing

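Every member kept the sign of its difference in the 14 alternatives run on all results, except Havcr2, below the filter throughout, which ranged from -0.01 to 0.25 without one array (-0.01 without WT replicate 1). No member other than Ctla4 passed in any of them. Ctla4 passed in 8 of the 14. The count of members past the adjusted threshold, 1, was 0 without the low-value filter (4 members at an unadjusted limma p under 0.05), 0 without moderation (3 members) and 0 in every fit without one array (range 0 to 0; 4 members each). The count over all genes, 19, was 3 without the filter, 35 with the filter on all 4 arrays, 45 with a trended and robust prior, 0 without moderation (986 genes at an unadjusted p under 0.05) and 0 without any one array (721 to 1145 genes at an unadjusted p under 0.05). Calls among the transcription factors, 3, were 1 without the filter, 0 without moderation and 0 without any one array. Members past the looser rule, 3, were 1 with the filter on all 4 arrays, where Tigit and Lag3 were not tested, 2 without moderation and 2 without WT replicate 2 (Lag3 at 0.57 there), and 3 in the other fits without one array. Costimulatory minus inhibitory, -0.17, was -0.15 after a further quantile normalization, -0.24 without Cd96 in the class, -0.13 with Cd200 added, -0.24 over members past the filter only, -0.14 with Tigit at its bound and Havcr2 left out, and 0.15 without Ctla4 and Tigit, the last 2 settings chosen after seeing the data. Without one array it ranged from -0.18 to -0.16. With the replicate number as a block (replicate block), Ctla4 passed (limma adjusted p = 0.0372), 13 genes passed in all and the costimulatory minus inhibitory value was -0.17; same-numbered arrays had a correlation of deviations of -0.0321 over genes, so the numbers were not taken to pair the arrays. Where one array is left out, the lone sample of its genotype is taken to vary as much as the other genotype does. Signal near background limits Tigit, Lag3 and Havcr2.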
